A study of Mus musculus with 16 samples.

Results

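The FOXO transcription factors and the AKT kinase branch that restrains them were followed at the RNA level in mouse macrophages. The genes were Foxo1, Foxo3, Foxo4, Foxo6, Akt1, Akt2 and Pdpk1, chosen by symbol and matched to the Ensembl identifiers of the deposited tables. All 7 were found among 54532 genes per table, and 6 of the 7 passed the filter on low values that left 11654 genes for testing. The filter asked for at least 1 FPKM (a fragment count divided by exon length and library size, and so a level per length) in at least 4 libraries.

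All 16 libraries came from macrophages derived in culture from the bone marrow of FVB/N mice. Every culture had 20% FBS and 30% L929 conditioned medium, a source of macrophage growth factor, for 5 to 7 days. The groups were wild type with vehicle (DMSO), wild type with 100 nM dexamethasone for 24 h, and the same treatments of cells with the genotype FOXO3-/-, with 4 libraries each. The series title places the comparison in the effect of FOXO3 on signalling by the glucocorticoid receptor, the receptor that dexamethasone activates. The labels used here do not describe the FOXO3-/- allele, and they do not say whether replicates came from separate mice, and the p-values below reflect library-to-library spread that may be technical.

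FOXO proteins are forkhead transcription factors that bind DNA and drive genes of cell cycle arrest, stress resistance, metabolism and cell death. Growth factor receptors activate PI3K, PI3K makes the lipid PIP3, and PDPK1 and the mTORC2 complex then phosphorylate AKT. Active AKT phosphorylates FOXO proteins, which are bound by 14-3-3 proteins and kept out of the nucleus. Most of this control acts on protein and not on RNA, so the levels below describe how much transcript of each component was present, and not its activity.

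Each of the 4 FOXO genes encodes a DNA-binding forkhead domain and an AKT site next to it, which is why a stretch of each is shown. The first set holds 60 coding bases within the forkhead-coding region, which cross an exon junction after base 51 in each gene. Letters came from the reference genome GRCm38 with GENCODE M21 gene models, on the strand of the gene, and capitals mark bases that differ from Foxo3. The Foxo1 stretch lies at chr3:52269372-52269422 and chr3:52345039-52345047 on the plus strand, that of Foxo3 at chr10:42274816-42274866 and chr10:42197893-42197901 on the minus strand, that of Foxo4 at chrX:101255223-101255273 and chrX:101258177-101258185 on the plus strand, and that of Foxo6 at chr4:120286839-120286889 and chr4:120269174-120269182 on the minus strand.
Foxo1: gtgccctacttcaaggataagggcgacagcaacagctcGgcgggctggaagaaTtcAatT
Foxo3: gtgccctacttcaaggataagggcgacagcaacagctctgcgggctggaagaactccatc
Foxo4: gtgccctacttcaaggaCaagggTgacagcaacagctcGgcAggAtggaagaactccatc
Foxo6: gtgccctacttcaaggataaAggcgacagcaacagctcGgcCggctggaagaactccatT
Foxo1 differed from Foxo3 at 4 of the 60 bases, Foxo4 at 5 and Foxo6 at 4, and 51 of the 60 were the same in all 4 genes.

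The second set holds 18 coding bases around the AKT site next to the forkhead domain, with the codon of the phosphorylated serine in capitals. The stretch lies at codon 253 of Foxo1 (chr3:52345159-52345176), codon 252 of Foxo3 (chr10:42197764-42197781), codon 197 of Foxo4 (chrX:101258297-101258314) and codon 184 of Foxo6 (chr4:120269045-120269062).
Foxo1: cggagaagagctgcgTCC
Foxo3: cggcggcgtgcggtcTCC
Foxo4: cgccgcagggctgccTCC
Foxo6: cggcgccgggccgtgTCC
The longest run of coding bases shared exactly was 38 bases for Foxo1 with Foxo3, and 17 to 21 bases for the other combinations of FOXO genes. It was 32 bases for Akt1 with Akt2. The sources used here do not say how reads within such runs were counted.

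In the libraries labelled FOXO3-/-, Foxo3 RNA stood at the wild-type level. Foxo3 lies at chr10:42181841-42276755 on the minus strand (GRCm38), and 2855 to 3962 reads per library were recovered for it. With vehicle the wild-type libraries held 26.02, 26.4, 23.6 and 22.9 FPKM and the labelled knockout libraries 24.7, 23.7, 23.2 and 23.6 FPKM. With dexamethasone the wild-type libraries held 24.2, 21.9, 22.7 and 23.8 FPKM and the labelled knockout libraries 22.9, 24.6, 24.2 and 26.4 FPKM. The groups overlapped in each treatment, and no library stood low.

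The difference in Foxo3, labelled knockout minus wild type on the log2(FPKM + 1) scale, was -0.05 with vehicle (95% interval -0.18 to 0.08) and 0.08 with dexamethasone (-0.05 to 0.20), with limma adjusted p of 0.641 and 0.349. A per-gene value sums all exons. Foxo3 has 7 merged exon blocks, and a single block, chr10:42181841-42186295 with 4455 bases, makes up 58.8% of the exon length. The values therefore check the labels only for a loss of Foxo3 RNA as a whole, and the loss of part of the transcript was not measurable from them. Below, "labelled knockout" stands for the libraries labelled FOXO3-/-.

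Dexamethasone did not change Foxo3 RNA beyond the spread in either genotype. The mean was 24.7 ± 1.72 FPKM (SD, n = 4) with vehicle and 23.2 ± 1.07 FPKM with dexamethasone in wild type, and 23.8 ± 0.635 and 24.5 ± 1.44 FPKM in the labelled knockout. The limma adjusted p was 0.286 in wild type and 0.649 in the labelled knockout.

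Culture composition differed between libraries in a way that touches several values below. Col1a1, a collagen gene of fibroblasts and other stromal cells, was between 0.395 and 356 FPKM. In wild type it was 6.77 to 174 FPKM with vehicle and 19.1 to 356 FPKM with dexamethasone, and in the labelled knockout 0.395 to 95.8 and 1.18 to 25.5 FPKM. The 10 stromal markers summed to 38.8 to 685 FPKM and 76.5 to 1308 FPKM in the wild-type groups. In the labelled knockout groups they summed to 4.92 to 521 FPKM and 7.04 to 104 FPKM. All 10 reached 1 FPKM in at least 1 library of the series. Between genotypes with dexamethasone 8 of 9 tested stromal markers were lower in the labelled knockout, beside 12.4% of all genes. The 10 macrophage markers also all reached 1 FPKM in at least 1 library. They summed to 12956 to 13905 FPKM in wild type with vehicle and 9688 to 12747 FPKM in wild type with dexamethasone. In the labelled knockout they summed to 13386 to 15691 FPKM with vehicle and 12954 to 15500 FPKM with dexamethasone. The genotypes overlapped in this sum with vehicle and did not overlap with dexamethasone. There 5 of 9 tested macrophage markers were higher and 0 lower in the labelled knockout, beside 26.7% of all genes called in either direction. The 8 neutrophil markers summed to 8.54 to 32.9 FPKM, mostly Csf3r (7.07 to 30.5 FPKM), with Ly6g at 0 in all libraries. Of these, 1 of 2 tested fell with dexamethasone in each genotype, beside 18.2% of all genes in wild type and 24.1% in the labelled knockout. The 5 dendritic cell markers summed to 4.34 to 51.7 FPKM, mostly Itgax (3.75 to 51.6 FPKM), the single one tested, which fell with dexamethasone by 2.21 in wild type and by 1.46 in the labelled knockout on the log2 scale. The 4 endothelial markers summed to 0.409 to 14.2 FPKM, Cdh5 being the highest at up to 9.46 FPKM. Of these, 2 of 3 tested were lower in the labelled knockout with dexamethasone, beside 12.4% of all genes. The part of the macrophage, neutrophil, dendritic cell and endothelial lists in the values below was not tested. Every B and T cell, mast cell and erythroid marker stayed under 1 FPKM. The lowest wild-type Col1a1 values belonged to replicate 3 with vehicle and replicate 4 with dexamethasone, and the highest value of the labelled knockout to replicate 4 with vehicle. That last library also stood apart in Xist, an RNA of the inactive X chromosome, with 0.981 FPKM beside 20.6 to 42.1 FPKM in the others. Ddx3y, Eif2s3y, Kdm5d and Uty, genes of the Y chromosome, were at 0 in all libraries, that one included. In such bulk libraries, fewer cells of a type and less RNA per cell cannot be told apart. Recovered reads came to 16886745 to 20584573 per library, so that 1 FPKM of a gene of 2 kb was worth 32.9 to 39.7 reads.

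The FOXO RNA pool was mostly Foxo3 and Foxo4. Foxo3 made up 51.3 to 64.0% of the summed FOXO FPKM of a library, Foxo4 29.8 to 42.4%, and Foxo1 5.29 to 7.55%. The sum over the 4 genes was 41.1 ± 1.43 FPKM (SD, n = 4) in wild type with vehicle, 43.6 ± 3.23 FPKM in wild type with dexamethasone, 38.0 ± 1.22 FPKM in the labelled knockout with vehicle and 40.3 ± 1.65 FPKM in the labelled knockout with dexamethasone. In vehicle every labelled knockout library (36.9 to 39.4 FPKM) lay below every wild-type library (39.8 to 42.7 FPKM), and with dexamethasone the genotypes overlapped. The Foxo3 share was lowest in wild type with dexamethasone, at 51.3 to 55.97%, and that range overlapped with none of the other groups. The plot of summed FOXO levels shows the make-up of each library.

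**Figure D1:**
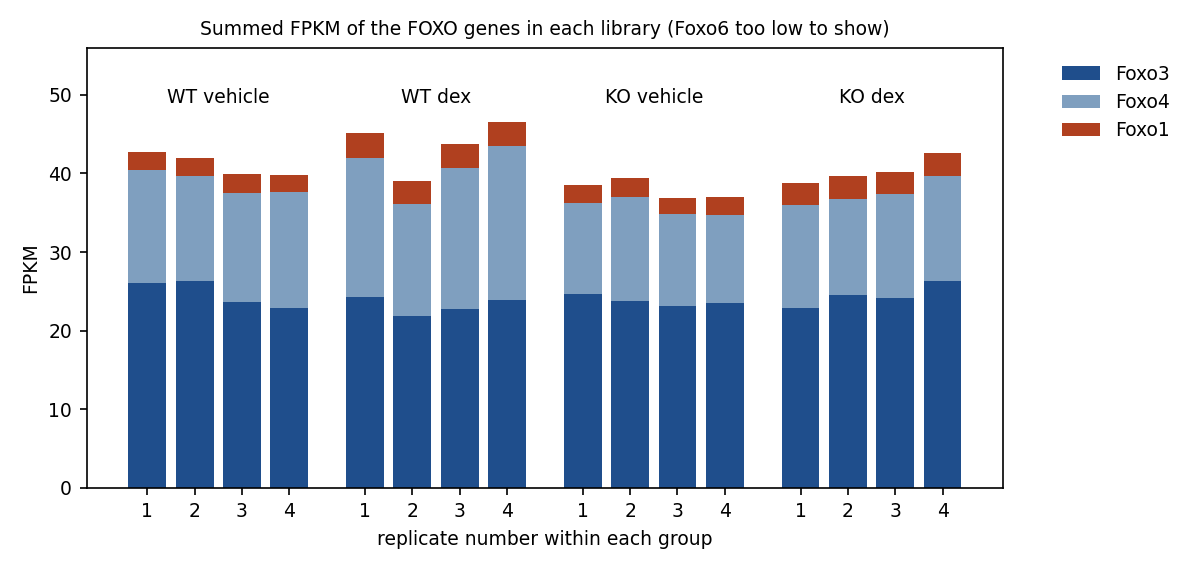
Summed FPKM of the FOXO genes (y axis) in each of the 16 libraries (x axis, replicate number within each group, WT for wild type and KO for the labelled knockout), with Foxo3, Foxo4 and Foxo1 stacked from the bottom. Foxo3 is the largest share in every library, and the tallest bar, at 46.5 FPKM, is replicate 4 of wild type with dexamethasone.

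Ordered by mean level per length, the 16 libraries gave Akt1, Foxo3, Akt2, Foxo4, Pdpk1, Foxo1 and Foxo6. Akt1 exceeded Foxo3 in 16 of 16 libraries, and Foxo3 exceeded Akt2 in 14 of 16, so that the order of Foxo3 and Akt2 did not hold in every library. Akt2 exceeded Foxo4 in 16 of 16 and Foxo4 exceeded Pdpk1 in 16 of 16. Pdpk1 exceeded Foxo1 in 16 of 16 and Foxo1 exceeded Foxo6 in 16 of 16.

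**Figure D2:**
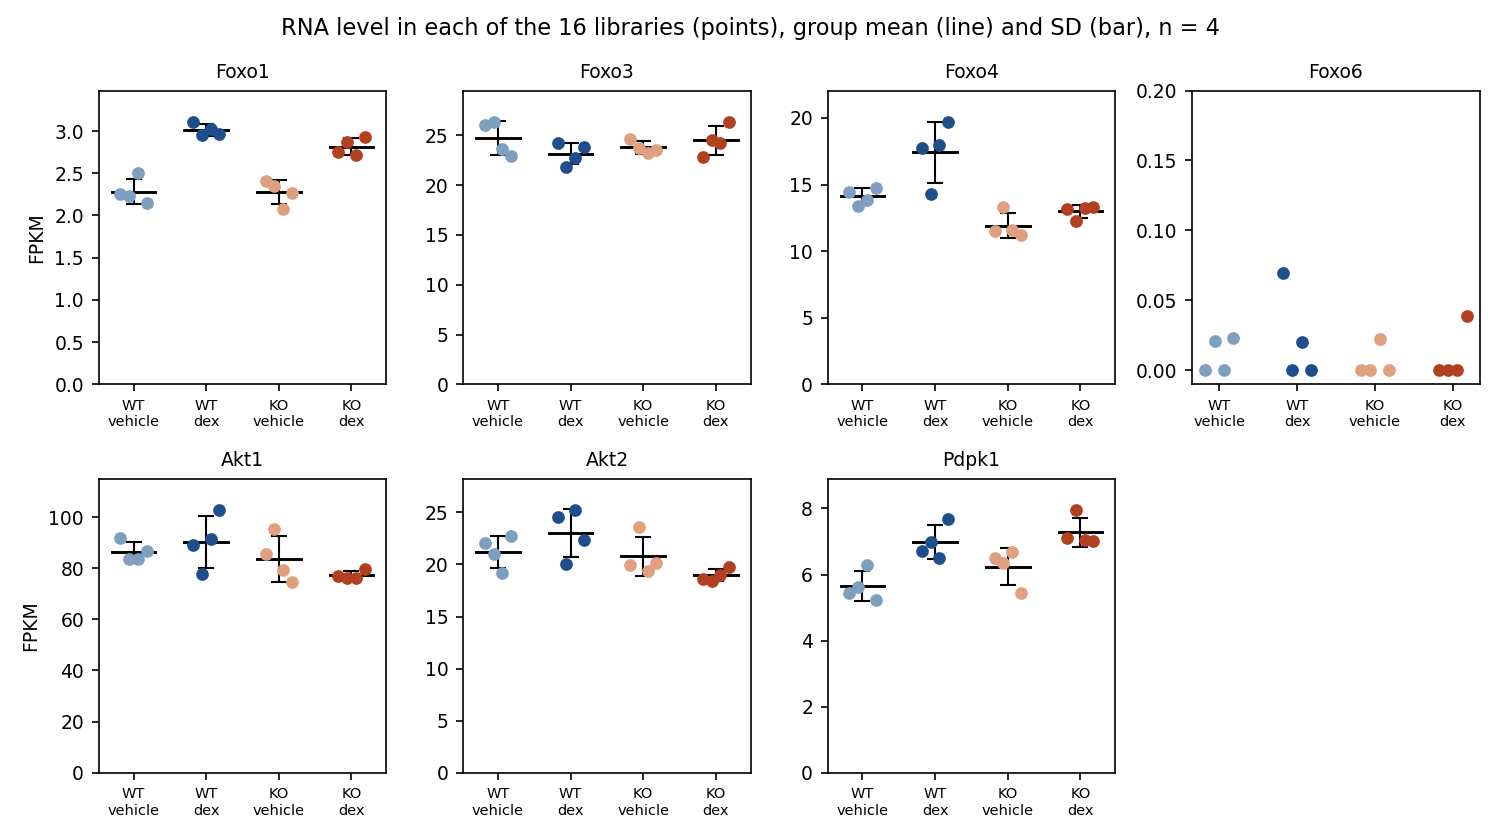
FPKM (y axis, each panel with its own scale from 0, except that the Foxo6 panel starts just below 0) of the 7 genes in each library, by group (x axis). Points are libraries, and lines and bars are the mean and SD of 4 libraries, left out for Foxo6. Foxo1 and Pdpk1 stand higher with dexamethasone in both genotypes, and Foxo4 stands lower in the labelled knockout.

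With dexamethasone, Foxo1, Foxo4 and Pdpk1 rose in wild type, and Foxo1 and Pdpk1 rose in the labelled knockout. Of the 6 genes tested, 3 passed the limma test in wild type, all higher, where 30.1% of all 11654 genes passed in either direction and 11.9% passed as higher. In the labelled knockout 2 of 6 passed, both higher, against 39.1% of all genes in either direction and 15% as higher. The median log2 difference was 0.19 over the 6 genes and -0.02 over all genes in wild type, and 0.08 and -0.05 in the labelled knockout.

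Foxo1, a FOXO factor known for control of gluconeogenic genes in liver and of lymphocyte homing, was the least abundant of the 3 expressed FOXO genes. It lies at chr3:52268336-52353221 on the plus strand and was covered by 306 to 504 reads per library. The wild-type libraries held 2.26, 2.23, 2.50 and 2.15 FPKM with vehicle and 3.11, 2.95, 3.02 and 2.97 FPKM with dexamethasone. The labelled knockout libraries held 2.40, 2.35, 2.08 and 2.26 FPKM with vehicle and 2.75, 2.87, 2.71 and 2.93 FPKM with dexamethasone. In both genotypes every library with dexamethasone lay above every library with vehicle, as did those of 10.8% of all genes in wild type and 16.6% in the labelled knockout.

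The mean FPKM of Foxo1 was 1.32-fold higher with dexamethasone in wild type (log2 difference 0.29 ± 0.06 SE, limma adjusted p = 0.00124) and 1.24-fold higher in the labelled knockout (0.22 ± 0.06 SE, adjusted p = 0.00572). The difference between both responses was -0.07 with an adjusted p of 0.765. The wild-type call ended in the libraries under 50 FPKM of Col1a1, where each wild-type arm is a single library (0.18, adjusted p = 0.372). The other alternatives kept both calls.

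Foxo1 was not higher in the labelled knockout. With vehicle its level was 0.996-fold that of wild type (log2 difference -0.0040, 95% interval -0.12 to 0.11, limma adjusted p = 0.975). With dexamethasone it was 0.935-fold (-0.07, -0.19 to 0.05, adjusted p = 0.343). There every labelled knockout library lay below every wild-type library, as did those of 10.2% of all genes, and the exact two-sided permutation test on FPKM gave p = 0.0286, the smallest that 4 against 4 libraries allow. The upper ends of the 95% intervals were 0.11 with vehicle and 0.05 with dexamethasone on the log2(FPKM + 1) scale. That scale understates changes of a gene as low as Foxo1, so a rise in FPKM itself could be larger.

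Foxo4, an X-linked FOXO factor, was lower in the labelled knockout and rose with dexamethasone in wild type. It lies at chrX:101254528-101260873 on the plus strand, with 691 to 1191 reads per library. With vehicle the wild-type libraries held 14.4, 13.4, 13.9 and 14.8 FPKM and the labelled knockout libraries 11.5, 13.3, 11.6 and 11.2 FPKM. The value of 11.2 FPKM belongs to replicate 4, the library that stood apart in Xist, and any link between both was not tested. With dexamethasone the wild-type libraries held 17.8, 14.3, 17.99 and 19.7 FPKM and the labelled knockout libraries 13.1, 12.2, 13.2 and 13.3 FPKM. In each treatment every labelled knockout library lay below every wild-type library, by a small margin with vehicle, as did those of 2.97% of all genes with vehicle and 10.2% with dexamethasone.

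Foxo4 with dexamethasone was 0.745-fold in the labelled knockout relative to wild type (log2 difference -0.39 ± 0.08 SE, limma adjusted p = 0.0046), and this call held under each alternative scaling, filter, weighting and covariate that was run, with values of -0.39 to -0.57. With vehicle it was 0.844-fold (-0.23 ± 0.08 SE, 95% interval -0.40 to -0.06), and the adjusted p of 0.125 did not pass. That value passed under median-ratio scaling (adjusted p = 0.0497), quantile normalization (0.0281) and array weights (0.00389). The interval with vehicle and that with dexamethasone (-0.56 to -0.22) both lay below 0, and neither held a rise of Foxo4 in the labelled knockout. Macrophage and endothelial markers also differed between genotypes with dexamethasone, and their part in this value was not tested.

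The dexamethasone rise of Foxo4 in wild type was 1.24-fold (log2 difference 0.28 ± 0.08 SE, limma adjusted p = 0.0179). The groups overlapped, because replicate 2 with dexamethasone held 14.3 FPKM, and the exact permutation test gave p = 0.0857. With only the groups compared in the fit, the adjusted p was 0.0772. In the labelled knockout the value was 1.09-fold (0.12, adjusted p = 0.275), and the difference between both responses was -0.16 with an adjusted p of 0.616. The highest Foxo4 value, 19.7 FPKM, was in the wild-type dexamethasone library with the lowest Col1a1 of its group, 19.1 FPKM.

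Of the 6 genes tested, 2 were called between genotypes with dexamethasone, both lower, against 26.7% of all genes in either direction and 12.4% as lower. With vehicle limma called 0 of 6, against 4.68% of all genes, with 1 of 6 at an unadjusted p under 0.05 (21.7% of all genes), 0 by limma voom, 2 with array weights and 1 with each of the other scalings. No member was called for the difference between the dexamethasone responses (0 of 6, against 0.129% of all genes), and there 0 of 6 had an unadjusted p under 0.05 (11.7% of all genes) and 0 were called by voom.

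Foxo6, a FOXO factor known mainly from brain, was close to absent. It lies at chr4:120267079-120287349 on the minus strand. It was listed at 0 in 10 of 16 libraries, and the other libraries held 0.0205 to 0.0697 FPKM from 1 to 3 reads each, 9 reads in all. A count of 0 allows up to 3 reads, which is 0.0578 to 0.0697 FPKM in these libraries. The libraries with reads were 2 of 4 in wild type with vehicle, 2 of 4 in wild type with dexamethasone, and 1 of 4 in each labelled knockout group, and no labelled knockout library exceeded 0.0385 FPKM. A rise in the labelled knockout that stays under the level a count of 0 allows was not detectable at this depth, and none above it was seen.

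**Figure D3:**
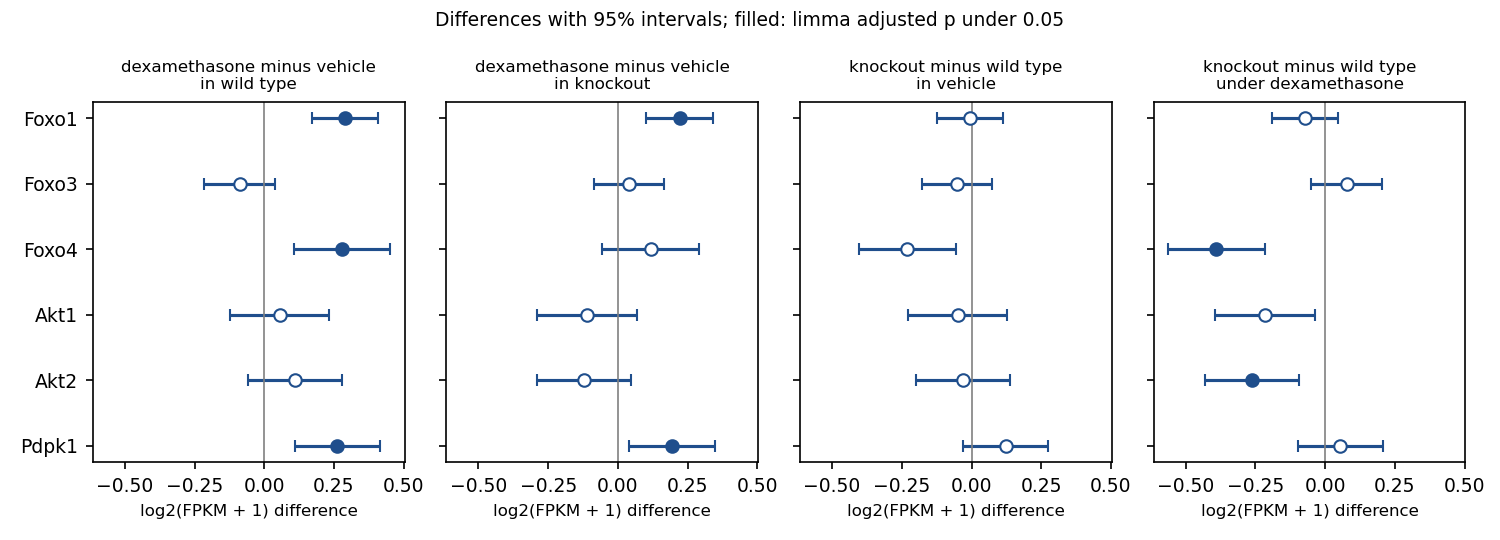
Differences in log2(FPKM + 1) (x axis) for Foxo1, Foxo3, Foxo4, Akt1, Akt2 and Pdpk1 (rows) in the 4 comparisons (panels), with 95% intervals from limma. Filled points passed an adjusted p of 0.05. Foxo1 lies near 0 in both genotype panels, and Foxo4 lies below 0 in both.

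Akt1 was the most abundant of the kinases and was called in none of the comparisons. It lies at chr12:112653821-112674884 on the minus strand, with 5514 to 7294 reads per library. With vehicle the wild-type libraries held 91.8, 83.6, 83.6 and 86.6 FPKM and the labelled knockout libraries 85.7, 95.4, 79.3 and 74.6 FPKM. With dexamethasone the wild-type libraries held 88.9, 77.7, 91.5 and 103 FPKM and the labelled knockout libraries 76.8, 76.2, 76.3 and 79.5 FPKM. The labelled knockout libraries with dexamethasone lay close together, and the lowest wild-type library fell within their range.

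The difference of Akt1 between genotypes with dexamethasone was -0.21 ± 0.08 SE (limma adjusted p = 0.0686, 95% interval -0.39 to -0.04). It passed under median-ratio scaling (-0.25, adjusted p = 0.0245), quantile normalization (-0.28, 0.00409), voom on recovered reads (-0.24, 0.0434) and array weights (-0.21, 0.00469). The dexamethasone differences were 0.06 in wild type (adjusted p = 0.661) and -0.11 in the labelled knockout (adjusted p = 0.325). Without replicate 4 of wild type with dexamethasone, which held 103 FPKM, the wild-type value was -0.01.

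Akt2, the isoform known for insulin control of glucose uptake, was lower in the labelled knockout with dexamethasone. It lies at chr7:27591552-27640826 on the plus strand, with 2326 to 3343 reads per library. With vehicle the wild-type libraries held 22.0, 20.98, 19.1 and 22.7 FPKM and the labelled knockout libraries 19.9, 23.6, 19.4 and 20.1 FPKM. With dexamethasone the wild-type libraries held 24.5, 20.0, 25.2 and 22.3 FPKM and the labelled knockout libraries 18.6, 18.4, 19.0 and 19.7 FPKM. The genotypes overlapped with vehicle. With dexamethasone every labelled knockout library lay below every wild-type library, as did those of 10.2% of all genes.

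With dexamethasone Akt2 was 0.823-fold in the labelled knockout relative to wild type (log2 difference -0.26 ± 0.08 SE, limma adjusted p = 0.0264). The call ended with a stromal marker score as a covariate (-0.20, adjusted p = 0.249), in the libraries under 50 FPKM of Col1a1 (-0.23, 0.285) and in 5 of 16 fits that left out a library, replicates 1 and 3 of wild type and replicates 1, 2 and 3 of the labelled knockout, all with dexamethasone. The macrophage marker sum also separated the genotypes there, and its part was not tested. The ratio of Akt2 to Akt1 FPKM was 0.257 ± 0.0272 (SD, n = 4) in wild type with dexamethasone and 0.245 ± 0.00384 in the labelled knockout with dexamethasone.

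Pdpk1, the kinase that phosphorylates the activation loop of AKT, rose with dexamethasone in both genotypes. It lies at chr17:24073680-24150924 on the minus strand, with 941 to 1664 reads per library. The wild-type libraries held 5.45, 5.61, 6.30 and 5.23 FPKM with vehicle and 6.73, 6.99, 6.49 and 7.68 FPKM with dexamethasone. The labelled knockout libraries held 6.49, 6.35, 6.69 and 5.43 FPKM with vehicle and 7.11, 7.94, 7.04 and 7.01 FPKM with dexamethasone. Every dexamethasone library lay above every vehicle library of its genotype, as did those of 10.8% of all genes in wild type and 16.6% in the labelled knockout.

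The rise of Pdpk1 was 1.23-fold in wild type (log2 difference 0.26 ± 0.07 SE, limma adjusted p = 0.0126) and 1.17-fold in the labelled knockout (0.19 ± 0.07 SE, adjusted p = 0.0429). The labelled knockout call was close to the threshold and ended in 10 of 16 fits that left out a library, with values of 0.14 to 0.22. The lowest of these came without replicate 4 of the labelled knockout with vehicle (0.14, adjusted p = 0.133), the library of that group with 95.8 FPKM of Col1a1. The wild-type call ended in the libraries under 50 FPKM of Col1a1 (0.25, adjusted p = 0.166). Genotype differences of Pdpk1 were 0.12 with vehicle (adjusted p = 0.325) and 0.05 with dexamethasone (adjusted p = 0.598).

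The rest of the pathway was read through 12 lists of other genes, with 159 genes of which 129 were tested. With dexamethasone 33 of 129 rose and 30 fell in wild type, and 28 rose and 39 fell in the labelled knockout. Between genotypes 7 were higher and 9 lower with vehicle, and 24 were higher and 30 lower with dexamethasone. Called shares were 48.8, 51.9, 12.4 and 41.9% in that order, beside 30.1, 39.1, 4.68 and 26.7% of all genes. Limma called 0 of 129 for the difference between both responses (0.129% of all genes), with 24 at an unadjusted p under 0.05 (11.7% of all genes). Voom and median-ratio scaling called 0, quantile normalization 1 and array weights 24. Fits that left out a library called 0 to 4. The genotype counts changed with the libraries kept and with a stromal score in the fit. With dexamethasone 8 of 9 tested stromal markers were themselves lower in the labelled knockout. The limit on Col1a1 left a single wild-type library in each treatment. Stromal content, genotype and fewer libraries cannot be told apart in these counts. With vehicle, the stromal score as a covariate left 2 higher and 8 lower, the libraries under 50 FPKM of Col1a1 left 0 of 117, and array weights gave 38 higher and 29 lower. With dexamethasone, the covariate left 8 higher and 16 lower, the libraries under 50 FPKM of Col1a1 left 0 higher and 12 lower, and array weights gave 38 and 46. Leaving out 1 library moved the count with vehicle from 16 to between 9 and 31. It was 31 without wild-type vehicle replicate 3, and 9 or 10 without wild-type vehicle replicate 1, 2 or 4 or labelled knockout vehicle replicate 1 or 3. The count with dexamethasone moved from 54 to between 30 and 64, with 30 and 33 without replicates 1 and 3 of wild type with dexamethasone.

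Several calls given below ended in the libraries under 50 FPKM of Col1a1, where each wild-type arm is a single library. Fewer libraries and less stroma cannot be told apart there, so the log2 differences are given beside those over all libraries. Between genotypes, Trib1 was 0.45 beside 0.52 with vehicle and 0.31 beside 0.45 with dexamethasone. With vehicle, Cdkn1b was -0.44 beside -0.39 and Ccng2 -0.27 beside -0.30. With dexamethasone, Pik3r1 was 0.34 beside 0.37 and Crebbp -0.57 beside -0.48. For dexamethasone in wild type, Pik3cd was -0.20 beside -0.37 and Bcl2l11 -0.56 beside -0.65. The plot of the pathway lists gives each gene.

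**Figure D4:**
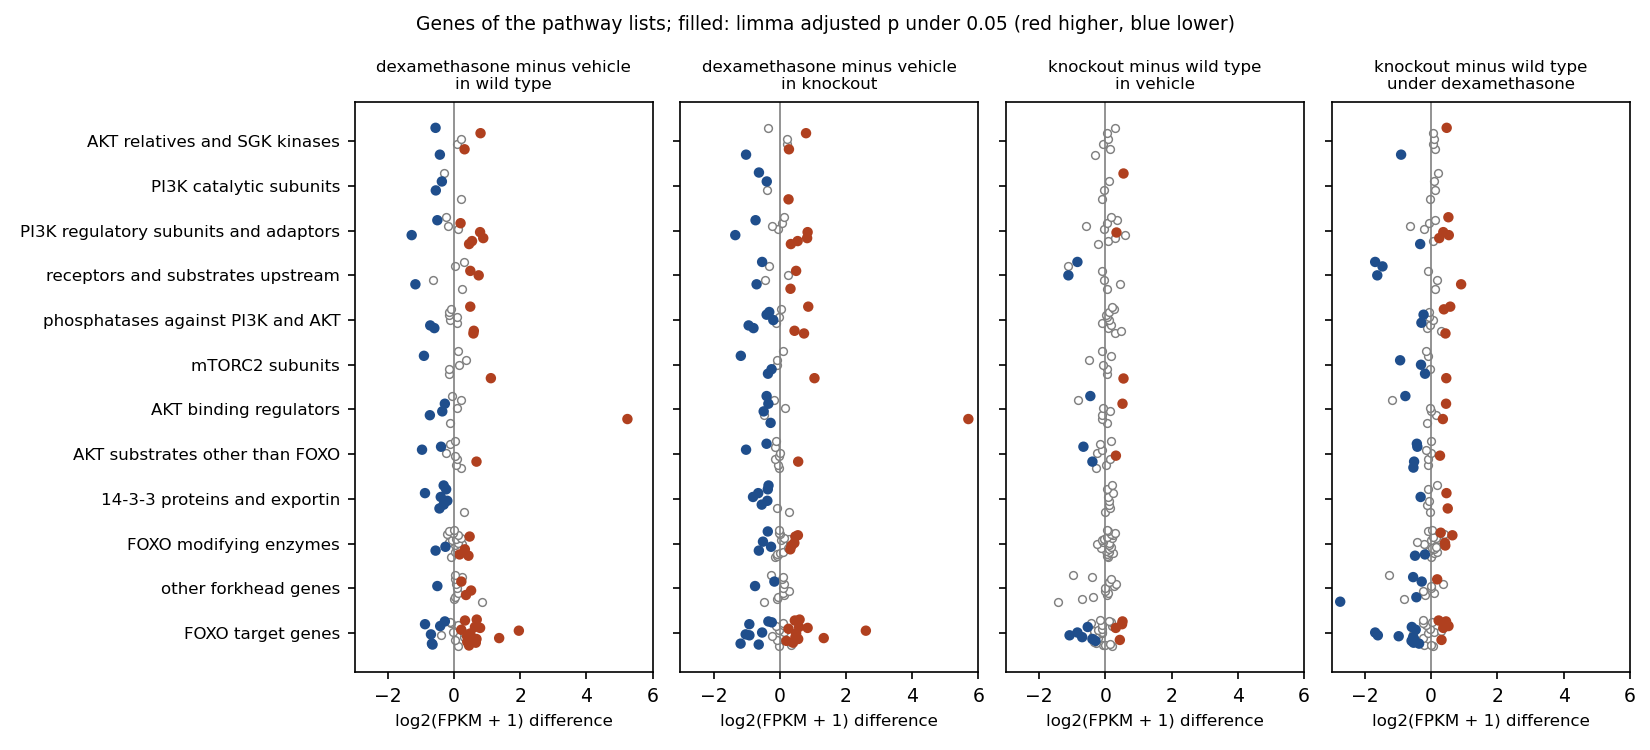
Log2(FPKM + 1) differences (x axis) of the tested genes of the 12 lists (rows) in the 4 comparisons (panels), each point a gene. Filled points passed a limma adjusted p of 0.05, red higher and blue lower. Dexamethasone calls in the row of 14-3-3 proteins and exportin all lie below 0, and the point farthest to the right is Fkbp5.

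Upstream receptors and their substrates were called between genotypes in both directions. Of 7 genes, 2 rose and 1 fell with dexamethasone in wild type and 2 rose and 2 fell in the labelled knockout. These are 42.9 and 57.1% called, beside 30.1 and 39.1% of all genes. Between genotypes 2 were lower with vehicle and 1 was higher and 3 lower with dexamethasone. There the shares were 28.6 and 57.1%, beside 4.68 and 26.7%. Irs2, an adaptor that links the insulin and IGF1 receptors to PI3K, was 4.69 ± 0.756 FPKM (SD, n = 4) with vehicle and 6.02 ± 0.327 FPKM with dexamethasone in wild type. In the labelled knockout it was 2.18 ± 0.519 FPKM with vehicle and 1.19 ± 0.237 FPKM with dexamethasone, a fall of log2 -0.53 (limma adjusted p = 0.00374). Every wild-type library with dexamethasone lay above those with vehicle, as did those of 10.8% of all genes. The wild-type value of 0.31 for Irs2 did not pass (limma adjusted p = 0.0729). The genotype difference of Irs2 was -0.85 with vehicle (adjusted p = 0.00121) and -1.69 with dexamethasone. The call with vehicle ended in the libraries under 50 FPKM of Col1a1 (-0.45, adjusted p = 0.323).

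Igf1r, the IGF1 receptor, was also lower in the labelled knockout, by -1.12 with vehicle (limma adjusted p = 0.00169) and by -1.63 with dexamethasone. Its levels were 2.38 ± 0.608 and 4.61 ± 0.656 FPKM (SD, n = 4) in wild type and 0.561 ± 0.353 and 0.828 ± 0.315 FPKM in the labelled knockout. The highest labelled knockout value with vehicle, 1.09 FPKM, was in replicate 4, the library of that group with the most Col1a1. The others of that group held 0.352 to 0.418 FPKM, under the filter of 1 FPKM. Igf1r did not pass the filter among the libraries under 50 FPKM of Col1a1, so its calls were not tested there. Insr, the insulin receptor, rose by 0.49 in wild type and 0.50 in the labelled knockout with dexamethasone (adjusted p = 0.000138 and 8.98e-05), and its genotype differences did not pass.

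Among PI3K catalytic subunits, 2 of 4 fell with dexamethasone in wild type, and 1 rose and 2 fell in the labelled knockout. These small counts are 50 and 75% called, beside 30.1 and 39.1% of all genes. Pik3cd, the leukocyte subunit p110 delta, went from 31.8 ± 1.95 to 24.6 ± 3.63 FPKM (SD, n = 4) in wild type (limma adjusted p = 0.00439) and from 34.3 ± 1.97 to 25.9 ± 1.10 FPKM in the labelled knockout (adjusted p = 0.00213). Pik3cg, the subunit p110 gamma that G protein-coupled receptors activate, was 10.1 ± 2.18 FPKM in wild type and 14.96 ± 1.26 FPKM in the labelled knockout with vehicle (adjusted p = 0.0106). That call ended with the stromal score as a covariate (0.44, adjusted p = 0.0597) and in the libraries under 50 FPKM of Col1a1 (0.17, 0.576).

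Regulatory subunits and adaptors moved in both directions, with 5 of 10 higher and 2 lower with dexamethasone in wild type. In the labelled knockout 4 were higher and 2 lower. The shares called were 70 and 60%, beside 30.1 and 39.1% of all genes. Pik3r1, which encodes the p85 alpha subunit, rose from 10.2 ± 0.716 to 18.4 ± 1.25 FPKM (SD, n = 4) in wild-type cells and from 13.0 ± 1.55 to 24.0 ± 1.398 FPKM in the labelled knockout (limma adjusted p = 5.55e-06 and 1.75e-06). It was also higher in the labelled knockout with dexamethasone, by 0.37 (adjusted p = 0.00579). Gab3, an adaptor of the macrophage growth factor receptor, rose from 2.51 ± 0.374 to 5.44 ± 0.346 FPKM in wild-type cells and from 3.31 ± 0.353 to 6.64 ± 0.529 FPKM in the labelled knockout. Pik3ap1, an adaptor that brings PI3K to Toll-like receptors, fell from 190 ± 38.5 to 78.6 ± 22.1 FPKM in wild-type cells and from 287 ± 46.6 to 112 ± 10.7 FPKM in the labelled knockout (adjusted p = 9.01e-05 and 3.88e-05).

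The phosphatases that oppose PI3K and AKT split. Of 11 tested, 3 rose and 2 fell with dexamethasone in wild type, and 3 rose and 5 fell in the labelled knockout. That is 45.5 and 72.7% called, beside 30.1 and 39.1% of all genes. Inpp4a, a lipid phosphatase of this pathway, rose from 6.01 ± 0.103 to 9.70 ± 2.401 FPKM (SD, n = 4) in wild-type cells (limma adjusted p = 0.0015) and from 7.56 ± 0.592 to 13.2 ± 1.29 FPKM in the labelled knockout (adjusted p = 0.000177). Phlpp1, which removes a phosphate from AKT itself, fell from 9.01 ± 1.68 to 5.08 ± 1.07 FPKM in wild type (adjusted p = 0.00297) and from 10.4 ± 2.05 to 4.90 ± 0.761 FPKM in the labelled knockout (adjusted p = 0.000279).

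Of the 7 mTORC2 genes, 1 rose and 1 fell with dexamethasone in wild type, and 1 rose and 3 fell in the labelled knockout. That is 28.6 and 57.1% called, beside 30.1 and 39.1% of all genes. Deptor, an inhibitor of mTOR, rose from 2.25 ± 0.408 to 6.08 ± 1.33 FPKM (SD, n = 4) in wild-type cells and from 3.69 ± 0.747 to 8.64 ± 0.937 FPKM in the labelled knockout (limma adjusted p = 3.49e-05 and 3.84e-05). Prr5l, a subunit that binds mTORC2, fell from 1.47 ± 0.326 to 0.312 ± 0.0899 FPKM in wild-type cells and from 1.81 ± 0.548 to 0.225 ± 0.0448 FPKM in the labelled knockout (adjusted p = 0.000168 and 1.14e-05).

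Kinases related to AKT did not move as a block. Of 6 tested, 2 rose and 2 fell with dexamethasone in wild type, and 2 rose and 1 fell in the labelled knockout. These are 66.7 and 50% called, beside 30.1 and 39.1% of all genes. Sgk1, a kinase that phosphorylates FOXO3 at sites shared with AKT and is induced by glucocorticoids in many tissues, rose from 17.1 ± 1.401 to 30.5 ± 1.08 FPKM (SD, n = 4) in wild-type cells and from 17.9 ± 2.88 to 31.5 ± 1.67 FPKM in the labelled knockout (limma adjusted p = 1.29e-05 and 8.26e-06). Its genotype differences were 0.05 with each treatment and did not pass.

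Most genes of the proteins that bind FOXO or carry it out of the nucleus fell with dexamethasone. Of the 8 tested genes for 14-3-3 proteins and exportin, 7 fell in wild type and 6 in the labelled knockout, where 18.2% and 24.1% of all genes were called lower. The list's medians were -0.31 and -0.37, beside -0.02 and -0.05 over all genes. Median-ratio scaling left 5 and 6 lower, and quantile normalization 4 and 4, and neither gave a higher one. Ywhag went from 91.7 ± 8.71 to 69.1 ± 3.79 FPKM (SD, n = 4) in wild-type cells and from 97.7 ± 9.24 to 55.3 ± 1.54 FPKM in the labelled knockout (limma adjusted p = 0.00113 and 1.70e-06). Ywhah went from 124 ± 23.9 to 66.9 ± 11.3 FPKM in wild-type cells and from 147 ± 26.6 to 91.8 ± 1.70 FPKM in the labelled knockout (adjusted p = 0.000519 and 0.00333). Of 9 tested macrophage markers, 7 were lower and 1 higher with dexamethasone in wild type, and 6 lower and 2 higher in the labelled knockout. The part of macrophage markers in these values was not tested.

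Of 22 tested genes for enzymes that modify FOXO proteins, 4 rose and 2 fell with dexamethasone in wild type. In the labelled knockout 5 rose and 4 fell. The called shares of 27.3 and 40.9% are near the 30.1 and 39.1% of all genes. Crebbp, an acetyltransferase that binds FOXO factors, rose from 4.89 ± 0.391 to 6.96 ± 0.403 FPKM (SD, n = 4) in wild type (limma adjusted p = 0.00146) and was 5.04 ± 0.436 and 4.71 ± 0.691 FPKM in the labelled knockout. With dexamethasone it was lower in the labelled knockout by -0.48 (adjusted p = 0.00166), and the difference between both responses did not pass (adjusted p = 0.130). Skp2, a ubiquitin ligase subunit that targets FOXO1, rose from 2.44 ± 0.299 to 4.03 ± 0.377 FPKM in the labelled knockout (adjusted p = 0.0021) and was 1.96 ± 0.463 and 2.24 ± 0.498 FPKM in wild type. Sirt3, a mitochondrial deacetylase, rose by 0.47 in both genotypes.

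Other AKT substrates included Tbc1d1, a regulator of glucose transporter traffic. It fell from 10.4 ± 0.434 to 4.82 ± 0.393 FPKM (SD, n = 4) in wild-type cells and from 9.59 ± 0.951 to 4.23 ± 0.506 FPKM in the labelled knockout (limma adjusted p = 6.71e-07 and 2.56e-07). Cdkn1b, which encodes the cell cycle inhibitor p27 and is both an AKT substrate and a FOXO target, rose from 10.1 ± 0.578 to 16.7 ± 1.11 FPKM in wild-type cells and from 7.47 ± 1.07 to 11.4 ± 0.615 FPKM in the labelled knockout. It was lower in the labelled knockout by -0.39 with vehicle (adjusted p = 0.0114) and by -0.51 with dexamethasone (adjusted p = 0.000759), and the value with vehicle missed the threshold with the stromal score as a covariate (-0.36, adjusted p = 0.0539). Of the 10 genes of this list, 1 rose and 2 fell with dexamethasone in each genotype. That is 30% called in each, beside 30.1 and 39.1% of all genes. With dexamethasone 1 was higher and 4 lower in the labelled knockout (50% called, beside 26.7% of all genes).

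Among genes whose products bind AKT, Fkbp5 moved most. It encodes a co-chaperone of the glucocorticoid receptor that also binds AKT, and it went from 1.19 ± 0.185 to 81.6 ± 7.28 FPKM (SD, n = 4) in wild-type cells and from 1.03 ± 0.0857 to 105 ± 7.46 FPKM in the labelled knockout with dexamethasone (limma adjusted p = 1.49e-15 and 4.39e-16). Trib1, a pseudokinase, was higher in the labelled knockout. It was 3.87 ± 0.216 and 5.97 ± 0.381 FPKM (SD, n = 4) in wild type and the labelled knockout with vehicle and 3.03 ± 0.308 and 4.52 ± 0.629 FPKM with dexamethasone (limma adjusted p = 0.00193 and 0.00192). Of the 8 tested genes of this list, 1 rose and 3 fell with dexamethasone in wild type. In the labelled knockout 1 rose and 4 fell. Shares called were 50 and 62.5%, beside 30.1 and 39.1% of all genes.

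Of 38 other forkhead genes, 13 passed the filter. With dexamethasone 3 rose and 1 fell in wild type, and 2 fell in the labelled knockout, where median-ratio scaling gave 2 higher and 1 lower. The called shares were 30.8 and 15.4%, beside 30.1 and 39.1% of all genes. Foxk1, which shares DNA motifs with FOXO factors, rose from 10.5 ± 1.46 to 15.5 ± 1.82 FPKM (SD, n = 4) in wild type (limma adjusted p = 0.00233) and was 10.3 ± 1.10 and 12.8 ± 1.37 FPKM in the labelled knockout (adjusted p = 0.0507). Foxm1, a driver of mitotic genes, fell from 2.82 ± 0.949 to 1.66 ± 0.468 FPKM in wild type (adjusted p = 0.0257) and from 3.43 ± 0.331 to 1.64 ± 0.196 FPKM in the labelled knockout (adjusted p = 0.00185).

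Foxn3, a forkhead repressor, was called in opposite directions. It rose from 3.55 ± 0.208 to 4.29 ± 0.0597 FPKM (SD, n = 4) in wild type (log2 difference 0.22, limma adjusted p = 0.00826) and fell from 3.86 ± 0.0579 to 3.36 ± 0.300 FPKM in the labelled knockout (-0.16, adjusted p = 0.0334). The difference between both responses, -0.38 ± 0.08 SE, had an adjusted p of 0.0821. The labelled knockout call ended under median-ratio scaling (-0.11, adjusted p = 0.118), quantile normalization (-0.13, 0.104) and voom on recovered reads (-0.16, 0.0580), with no filter, with only the groups compared, and in the libraries under 50 FPKM of Col1a1 (-0.15, 0.117). It also ended in 7 of 16 fits that left out a library, replicates 1, 2 and 3 of the labelled knockout with dexamethasone and all 4 with vehicle. With dexamethasone Foxn3 was lower in the labelled knockout by -0.28 (adjusted p = 0.00343). In the libraries under 50 FPKM of Col1a1 this call (-0.31, adjusted p = 0.159) and that in wild type (0.32, 0.132) ended as well.

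FOXO target genes were called in both directions between genotypes. Of 30 tested, 4 were higher and 6 lower in the labelled knockout with vehicle, and 6 higher and 10 lower with dexamethasone. These are 33.3 and 53.3% called, beside 4.68 and 26.7% of all genes. With dexamethasone 14 rose and 6 fell in wild type, and 12 rose and 8 fell in the labelled knockout. That is 66.7% called in each genotype, beside 30.1 and 39.1% of all genes. With the stromal score as a covariate, 2 were higher and 5 lower with vehicle and 5 higher and 10 lower with dexamethasone. The median genotype difference was -0.13 with vehicle and -0.22 with dexamethasone, beside 0.04 and 0.03 over all genes. Ccng2, a cyclin linked to cell cycle arrest, was 6.05 ± 0.302 and 8.91 ± 0.231 FPKM (SD, n = 4) in wild type with vehicle and dexamethasone and 4.73 ± 0.314 and 5.596 ± 0.425 FPKM in the labelled knockout. It was lower in the labelled knockout in both treatments (limma adjusted p = 0.00857 and 2.40e-05). Bcl2l11, which encodes the pro-apoptotic protein BIM, fell with dexamethasone by 0.65 in wild type and by 0.63 in the labelled knockout (adjusted p = 4.02e-05 and 3.25e-05), and its genotype differences were -0.02 and -0.00176 and did not pass. Cited2, a transcriptional co-regulator, rose from 61.5 ± 5.81 to 160 ± 16.4 FPKM in wild-type cells and from 53.2 ± 6.84 to 135 ± 8.28 FPKM in the labelled knockout. The target list is textbook knowledge of other tissues, and these libraries do not show which of its genes FOXO3 binds.

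Genes next to Foxo3 on chromosome 10 were compared between genotypes as well. Of 14 genes tested within 1000000 bases of the Foxo3 start, 2 were called with vehicle and 3 with dexamethasone, all higher in the labelled knockout, beside 4.68% and 26.7% of all genes. The share with dexamethasone is not above that of all genes. Sesn1, a stress-response gene and FOXO target whose start lies 466820 bases from that of Foxo3, went from 64.7 ± 12.9 to 91.3 ± 10.9 FPKM (SD, n = 4) with vehicle and from 34.4 ± 2.62 to 47.6 ± 2.48 FPKM with dexamethasone (limma adjusted p = 0.0212 and 0.0113). Snx3, a sorting nexin of endosomes at 225275 bases, went from 211 ± 14.8 to 266 ± 13.5 FPKM and from 177 ± 12.5 to 212 ± 14.3 FPKM (adjusted p = 0.0152 and 0.0199). Afg1l, at 201810 bases, was called with dexamethasone only, at 3.65 ± 0.541 and 4.75 ± 0.621 FPKM (adjusted p = 0.0401). Foxo3 itself, between them, was not called. None of these calls held in the libraries under 50 FPKM of Col1a1 or with the stromal score as a covariate, with adjusted p of 0.121 and 0.214 for Sesn1, 0.0928 and 0.273 for Snx3 and 0.376 for Afg1l with the covariate.

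**Figure D5:**
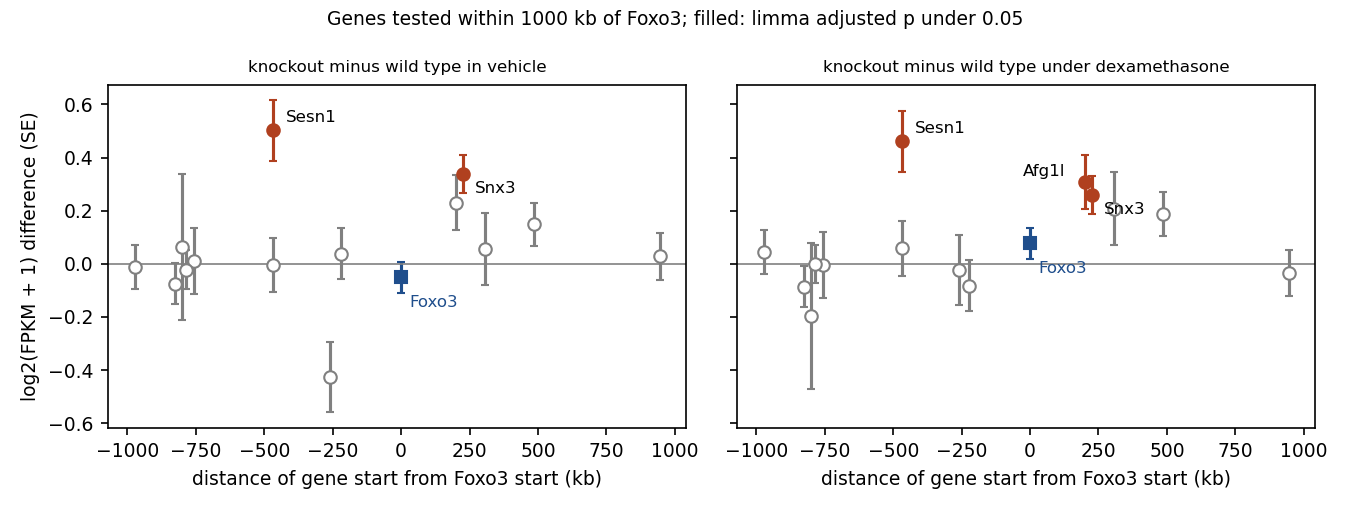
Difference in log2(FPKM + 1) between the labelled knockout and wild type (y axis, with SE) of the tested genes in the window around Foxo3 against the distance of their start from that of Foxo3 (x axis), with vehicle and with dexamethasone. Filled points passed a limma adjusted p of 0.05, and the square is Foxo3. Sesn1 and Snx3 lie above 0 in both panels, on either side of Foxo3.

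The members were also set beside the genes whose log2(FPKM + 1) values followed theirs most closely over the 16 libraries, which share groups, treatment and stromal content, so that the coefficients are descriptions. For Foxo1 they were Slc10a6 (Pearson r = 0.943), Izumo4 (0.943) and Hif3a (0.942), and the most opposite gene was Zbp1 (-0.961). For Foxo4 they were Calcoco1 (0.965), Maf1 (0.946) and Dnajc16 (0.943), and the most opposite was Eif2s1 (-0.896). For Foxo3 the closest was Recql5, at 0.766. Among the members, the coefficient was 0.71 for Foxo4 with Akt1, 0.71 for Foxo4 with Akt2, 0.73 for Foxo1 with Pdpk1 and -0.14 for Foxo1 with Foxo3.

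Promoter windows from RefSeq (GRCm38.p6, 250 bases before to 50 after each start) were matched for Foxo1, Foxo3, Akt1, Akt2 and Pdpk1, with 10 windows in all. The FOXO motif TGTTTAC, searched on both strands, was found in a single window, of Akt1, and 3.65% of all 32817 windows hold it. The motif AGAACA, part of the site that the glucocorticoid receptor binds, was found in none of the 10, and 19.0% of all windows hold it. A match or its lack in so short a window is a description of these letters only.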

How the data were processed

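RNA levels were taken from 16 tables, 1 per library, in which the authors deposited FPKM values for 54532 Ensembl genes. The tools listed are HTSeq 0.6.1, TopHat2 2.0.12, DESeq2 and Bowtie2 2.2.3, and the builds mm10 and GRCm38, per the submitters' processing notes. The sources used here give neither their roles nor the annotation or strand setting, so reads of a gene and an overlapping one cannot be told apart. Among the members, only Foxo1 shares exon bases with another GENCODE M21 gene, Gm20402 on the opposite strand (7.78% of exon length). Gm20402 was at 0 FPKM in all libraries. GENCODE M21 named 54495 genes. Reads were recovered from the FPKM through exon lengths, and 97.1 to 97.3% of positive values came out whole within 0.05 reads. Counts of no 2 libraries of a group agreed within sampling noise (chi-square per gene of at least 7.46).

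Values were tested as log2(FPKM + 1), which understates changes of low genes, with limma 3.58.1 in R 4.3.3 (4 group means, all 16 libraries, intensity trend). Genes needed 1 FPKM in 4 libraries. Two-sided p-values received a Benjamini-Hochberg adjustment over 11654 genes in each of 5 comparisons (threshold 0.05). Single values were compared by exact permutation tests on FPKM. Python 3.11.15 did the rest. The steps were tested on simulated data. Counting intervals and floors cover counting error only. The members and lists were chosen with earlier results of these data known. Pathway genes were named by a rule: up to 2 called genes per list, direction and comparison with the smallest adjusted p, of which the text gives a part, since some genes are not reported here. Genes near Foxo3 that were called are all named.

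Alternatives were other pseudocounts, filters, scalings, weights, groups in the fit, a replicate block, a stromal score as covariate, libraries under 50 FPKM of Col1a1, voom on recovered reads, and leaving out each library.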

Additional observations from a re-analysis of the deposited data

Results flagged for a closer look

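In 16 of 172 sets of 4 libraries (a gene of the text in a group), 1 library lay apart from the other 3 by more than the 95% critical value of Dixon's test, where chance alone gives about 1 in 20 sets. The gap is given as a share of the range.

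Among the members, Foxo4 in the labelled knockout with dexamethasone was lowest in replicate 2, at 12.2 FPKM beside 13.1 to 13.3 FPKM (gap 0.852). Pdpk1 was highest in the same library, at 7.94 FPKM beside 7.01 to 7.11 FPKM (gap 0.896).

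In wild type with vehicle, replicate 3, which held 6.77 FPKM of Col1a1, was highest for Pik3cg (13.4 beside 8.71 to 9.32 FPKM, gap 0.869), Gsk3b (13.8 beside 11.03 to 11.4 FPKM, gap 0.862) and Sesn1 (84.1 beside 57.2 to 59.3 FPKM, gap 0.924). Replicate 4 was lowest for Afg1l (3.46 beside 4.01 to 4.11 FPKM, gap 0.857).

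In wild type with dexamethasone, replicate 4, which held 19.1 FPKM of Col1a1, was highest for Pik3r5 (61.5 beside 35.1 to 39.5 FPKM, gap 0.832), Inpp4a (13.3 beside 8.10 to 8.92 FPKM, gap 0.841) and Phlpp1 (6.68 beside 4.47 to 4.66 FPKM, gap 0.915). Replicate 2 was highest for Xpo1 (10.4 beside 6.38 to 6.99 FPKM, gap 0.848) and lowest for Snx3 (158 beside 182 to 185 FPKM, gap 0.900), and replicate 3 was lowest for Pik3r1 (16.5 beside 18.7 to 19.2 FPKM, gap 0.833).

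In the labelled knockout with vehicle, replicate 4, which held 95.8 FPKM of Col1a1, was highest for Foxc1 (4.95 beside 0.00985 to 0.0795 FPKM, gap 0.986) and Igf1r (1.09 beside 0.352 to 0.418 FPKM, gap 0.910). Replicate 3 was highest for Skp2 (2.89 beside 2.27 to 2.32 FPKM, gap 0.922) and replicate 2 for Fkbp5 (1.16 beside 0.981 to 0.997 FPKM, gap 0.907). The part of stromal content in these values was not tested.

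For Irs2 and Foxn3, every wild-type library with dexamethasone lay above those with vehicle. In the labelled knockout every library with dexamethasone lay below those with vehicle, by a small margin for both genes. The share of all genes that separate in opposite directions in this way was not counted. The wild-type rise of Irs2 did not itself pass the limma test. The difference between both responses was -0.84 for Irs2 (limma adjusted p = 0.0853) and -0.38 for Foxn3 (adjusted p = 0.0821), and neither passed.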

How the results depend on the processing

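Among the values of the 30 member results under alternatives, 773 kept their direction and side of the threshold, 25 lost a call, 14 gained one and 17 changed sign; the cause was not tested. With only libraries under 50 FPKM of Col1a1 (a lone wild-type library in each treatment, whose spread is taken from the remaining groups), genes called were 2193 for dexamethasone in wild type, 46 between genotypes with vehicle, 405 with dexamethasone and 1 for the difference between responses. There Foxo1 (0.18) and Pdpk1 (0.25) in wild type, Pdpk1 in the labelled knockout (0.14) and Akt2 between genotypes with dexamethasone (-0.23) lost their calls, and the sign changed for Foxo3 (0.013 in wild type, 0.015 with vehicle), Akt1 (0.049) and Akt2 (0.12) with vehicle, Pdpk1 with dexamethasone (-0.071) and the Foxo1 difference between responses (0.039). The stromal score as a covariate gave 950 genes between genotypes with dexamethasone and 113 for the difference between responses, with Akt2 at -0.20 (call lost) and 0.016 with vehicle, and Pdpk1 at -0.0072 with vehicle and -0.11 with dexamethasone. Array weights gave 4840, 6388 and 1391 genes (vehicle, dexamethasone, difference between responses), with calls for Akt1 (-0.13 in the labelled knockout, -0.21 between genotypes with dexamethasone) and, with vehicle, Foxo4 (-0.25) and Pdpk1 (0.20), and Foxo1 at 0.038. Median-ratio scaling called Foxo4 with vehicle (-0.27) and Akt1 with dexamethasone (-0.25). Quantile normalization called Akt1 (0.20 in wild type, -0.28 between genotypes with dexamethasone) and Foxo4 (0.21 in the labelled knockout, -0.28 with vehicle), and Akt1 in the labelled knockout (0.065) and Foxo1 with vehicle (0.062) changed sign. Voom called Akt1 with dexamethasone (-0.24) and 4 genes for the difference between responses. With only the groups compared, 244 genes were called with vehicle, and Foxo4 in wild type (0.28) and Pdpk1 in the labelled knockout (0.19) were lost. With no filter, Pdpk1 in the labelled knockout (0.19) was lost and 6 genes were called for the difference between responses. Exact permutation gave p = 0.0857 for Foxo4 in wild type and 0.0286 for Foxo4 with vehicle and Foxo1 with dexamethasone between genotypes.

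Same-numbered libraries correlated at -0.763 to 0.732 in their deviations from the group means. Replicate 3 of wild type with vehicle and replicate 4 of wild type with dexamethasone, each lowest in Col1a1 of its group, correlated at 0.788. Stromal content and a shared origin cannot be told apart in these values, so whether same-numbered libraries share a mouse or a batch was not measurable from them. With the replicate block, Akt2 between genotypes with dexamethasone (-0.26, adjusted p = 0.0563) and Pdpk1 in the labelled knockout (0.19, adjusted p = 0.0680) missed the threshold, and 1 gene was called for the difference between responses.

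Leaving out 1 library at a time, genes called ranged from 277 to 1624 between genotypes with vehicle (1624 without wild-type vehicle replicate 3), from 1490 to 4065 with dexamethasone and from 2 to 320 for the difference between responses (320 without wild-type dexamethasone replicate 4). Ranges were -0.0085 to 0.12 for Akt1 in wild type, 0.14 to 0.22 for Pdpk1 in the labelled knockout, and, between genotypes, with vehicle -0.024 to 0.027 for Foxo1, -0.28 to -0.20 for Foxo4, -0.11 to 0.0028 for Akt1 and -0.090 to 0.0017 for Akt2, and with dexamethasone -0.28 to -0.15 for Akt1 and -0.33 to -0.22 for Akt2. Higher calls were 38.4% of calls for dexamethasone in the labelled knockout (48.5% with median-ratio scaling, 51.1% with quantile normalization) and 72.1% between genotypes with vehicle (60.4% and 61.6%). Of 3307 values of 119 results of named pathway genes, 296 lost a call and 0 changed sign. These results were picked as calls with the smallest adjusted p, so none could gain a call. The same choice favoured a stable sign, so the count of sign changes does not measure how stable other results are.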
